A study of Homo sapiens with 12 samples.

Results

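The transcripts of 10 genes of the FOXO pathway were examined in 12Z cells: the factors FOXO1, FOXO3 and FOXO4, and 7 genes known as their targets, YPEL3, CCNG2, SESN1, SESN3, BCL6, CITED2 and PDK4. They were chosen by gene symbol from 60617 gene identifiers, with earlier results of these data known. All 10 were among the 22756 genes tested. 12Z is an immortalized epithelial line from an endometriotic lesion, that is, from endometrial tissue growing at a site other than the uterine lining. All cells carried non-targeting siRNA and a transiently transfected pBabe plasmid, with PIK3CA H1047R as insert (H1047R cells) or empty (control cells). PIK3CA encodes the p110α catalytic subunit of phosphoinositide 3-kinase (PI3K), and H1047R is an activating substitution in its kinase domain. After 4 h without serum, cells received 100 nM insulin or vehicle for 24 h. Each of the 4 groups, H1047R insulin, H1047R vehicle, control insulin and control vehicle, had 3 libraries of mRNA. The plasmid was transient, so that a library can hold cells with and without it, and in such bulk samples fewer cells that express a gene and less RNA per cell cannot be told apart.

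FOXO proteins are forkhead transcription factors that bind DNA and switch on genes for cell cycle arrest, stress resistance, autophagy and fuel choice. Insulin acts through PI3K and the kinase AKT, which phosphorylates FOXO proteins, and the phosphorylated factors are held by 14-3-3 proteins and leave the nucleus. Insulin and activated PI3K are therefore known to lower transcripts that depend on FOXO, while p53, hypoxia and other inputs act on many of the same genes. RNA counts measure the transcripts only, not the phosphorylation or the location of the factors.

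The libraries were compared first. Total gene counts ranged from 30071951 to 37918025 in H1047R insulin and from 21483124 to 29255708 in the other groups, and reads placed at several sites, which are not counted, made up 8.48 to 9.51% in H1047R insulin and 13.6 to 15.4% elsewhere. PIK3CA was at 734, 714 and 715 CPM in H1047R insulin, 312, 180.1 and 215 CPM in H1047R vehicle, 81.0, 85.9 and 80.9 CPM in control insulin, and 89.0, 88.2 and 88.6 CPM in control vehicle, where CPM are gene counts set relative to TMM-scaled library size. Every contrast with H1047R insulin was thus also one of different PIK3CA levels. The summed level of 6 epithelial markers was 3269 to 3287 CPM in H1047R insulin and 2907 to 3245 CPM elsewhere, carried by keratins, while the defining epithelial genes EPCAM and CDH1 averaged 0.599 and 1.74 CPM. The sum of 6 mesenchymal markers was 5106 to 5403 CPM in H1047R insulin, 6323 to 6677 CPM in H1047R vehicle, 5290 to 5532 CPM in control insulin and 6147 to 6688 CPM in control vehicle, all 6 above 1 CPM. It was lower with insulin in both kinds of cells, and the part that it, read placement or PIK3CA level had in the results below was not tested. Leukocyte and endothelial markers summed to at most 6.52 and 5.23 CPM, and CD3E was at 0 in every library.

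To show where the letters that FOXO proteins recognize lie, the forkhead element GTAAACA and the insulin response sequence CAAAACA were looked for on both strands before the 18 RefSeq start sites of the 10 genes (GRCh38.p14). Within 250 bases neither was found at any of the 18, against 2.98% and 4.30% of all 35116 promoters. Within 1000 bases GTAAACA was found at 4 of the 18, 1 each of YPEL3, CITED2, FOXO1 and PDK4, against 11.5% of all promoters, and CAAAACA at 2 of the 18, 1 each of CCNG2 and FOXO1, against 21.2%. The stretches of 3 genes that changed below and of FOXO1 are shown 5′ to 3′ on the strand of the gene, with the matching 7 letters, or their reverse complement TGTTTAC, in capitals.
YPEL3, chr16:30096892-30096920, minus strand, 696 bases before the start and inside an annotated exon: ggagtagaatcTGTTTACagcttatgacc
CITED2, chr6:139375482-139375548, minus strand, 870 bases before the start: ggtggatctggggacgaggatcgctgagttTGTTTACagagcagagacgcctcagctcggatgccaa
CCNG2, chr4:77156862-77156942, plus strand, matches 315 and 301 bases before the start: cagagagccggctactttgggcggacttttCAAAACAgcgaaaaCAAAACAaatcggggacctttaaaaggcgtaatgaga
FOXO1, chr13:40666882-40666997, minus strand, matches 326 and 277 bases before the start: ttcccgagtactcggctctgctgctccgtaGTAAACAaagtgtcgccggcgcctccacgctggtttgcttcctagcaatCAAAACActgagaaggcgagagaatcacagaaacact
CCNG2 had a pair of CAAAACA matches 14 bases apart on the same strand, and FOXO1 had one match of each kind in this stretch and another CAAAACA 560 bases before its start. The PDK4 match lay 360 bases before the start. The YPEL3 match, at 30096903 to 30096909, lay before the RefSeq start at 30096213. It was inside the annotated span of YPEL3 itself, which reaches 30096915. No match overlapped another. These are matches of letters, not sites of binding, and the absence of a match says nothing about the factors.

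Across the 10 genes, insulin lowered YPEL3 and FOXO4 in both kinds of cells and raised CITED2 in H1047R cells. CCNG2 passed as lower in H1047R cells only, and FOXO3 as higher in control cells only. In the other cells their log2 changes had the same sign and did not pass (-0.18 for CCNG2 and 0.17 for FOXO3). The insulin effects on CCNG2 and FOXO3 were not shown to differ between the cells. In H1047R cells, 4 of the 10 were called at a false discovery rate (FDR) under 0.001, 1 higher and 3 lower, against 19.6% of all genes tested (9.85% higher and 9.80% lower). In control cells 3 of the 10 were called, 1 higher and 2 lower, against 1.63% of all genes (0.483% higher and 1.15% lower). The median log2 fold change of the 10 genes was -0.01 in H1047R cells and -0.20 in control cells, against -0.00060 and 0.0037 over all genes. Without PDK4, whose counts were at most 8, the medians were 0.07 and -0.18. In insulin, H1047R cells differed from control cells in 5 of the 10, with CITED2 and BCL6 higher and YPEL3, FOXO4 and CCNG2 lower, against 23.5% of all genes (11.4% higher and 12.0% lower), and the median was -0.17 against -0.02. In vehicle, H1047R cells differed in 0 of the 10, with edgeR and with DESeq2, against 0.158% of all genes (0.141% higher and 0.0176% lower), with medians of -0.11 and 0.0022. An unadjusted p under 0.05 was reached by 4 of the 10 and by 11.9% of all genes. The insulin effect itself differed between the cells for 3 of the 10, 1 more positive and 2 more negative in H1047R cells, against 9.07% of all genes (4.58% and 4.49%). The insulin contrasts and the H1047R contrasts share libraries and are not independent of each other. The shares over all genes, here and below, include genes with few counts and were not matched for level. Because the 10 genes and the lists below were chosen with earlier results of these data known, the shares beside them are description only. They do not test whether FOXO genes changed more often than others. Of the genes tested, 13302 averaged at least 1 CPM, as did all of the 10 but PDK4. After requiring 1 CPM in 3 libraries, 4354 genes were called with insulin in H1047R cells, against 4471 with the filter used here. The share among genes at such levels was thus above 19.6% in that contrast.

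**Figure D1:**
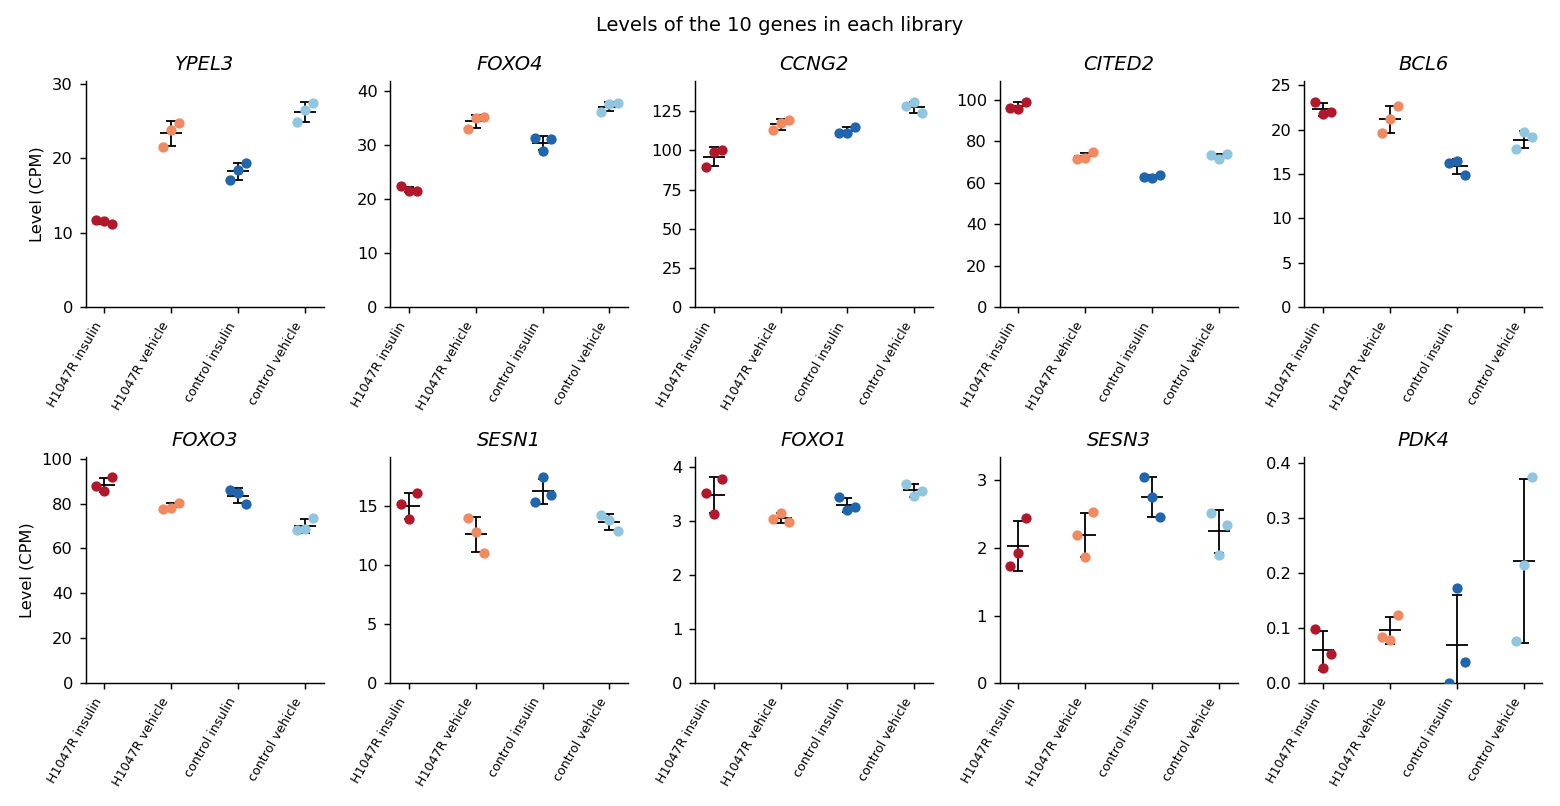
Level of each of the 10 genes in CPM (vertical axes from 0) for the 12 libraries (points), with the mean and SD of each group of 3 (black). YPEL3 and FOXO4 lie lowest in the 3 H1047R insulin libraries, at 11.2 to 11.7 CPM and 21.5 to 22.4 CPM, and CITED2 lies highest there, at 95.5 to 99.1 CPM.

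The factors were taken first. FOXO4 (ENSG00000184481, chromosome X, 71095851 to 71103532 in hg38, plus strand), a small member of the family, was at 22.4, 21.5 and 21.6 CPM in H1047R insulin, 33.0, 35.0 and 35.3 CPM in H1047R vehicle, 31.3, 29.0 and 31.1 CPM in control insulin, and 36.1, 37.6 and 37.8 CPM in control vehicle. The levels stood in the order H1047R insulin, control insulin, H1047R vehicle, control vehicle from low to high, and no neighbouring groups overlapped. With insulin FOXO4 fell by 0.66 ± 0.0571 on the log2 scale in H1047R cells (SE, adjusted p = 1.66e-12) and by 0.29 ± 0.0559 in control cells (adjusted p = 0.000586). H1047R cells in insulin were 0.48 ± 0.0571 below control cells on the log2 scale (adjusted p = 3.49e-09), whereas in vehicle the difference was -0.11 ± 0.0559 and did not pass (adjusted p = 0.446). The insulin effect was more negative in H1047R cells by 0.37 ± 0.0799 (adjusted p = 0.000442). The call in control cells was lost without any 1 of the 6 control libraries (adjusted p = 0.00138 to 0.0146), and that of the difference between the cells without any of 8 libraries (0.00107 to 0.00204), with library totals alone (0.00107) and with no filter on low counts (0.00123).

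FOXO3 (ENSG00000118689, chromosome 6, 108559835 to 108684774, plus strand), the factor linked to longevity and stress resistance, ran the other way. It was at 87.7, 85.4 and 91.7 CPM in H1047R insulin, 77.7, 77.9 and 80.2 CPM in H1047R vehicle, 85.9, 84.8 and 79.7 CPM in control insulin, and 68.2, 68.5 and 73.7 CPM in control vehicle. Control vehicle lay below all other libraries, and H1047R insulin overlapped control insulin. In control cells FOXO3 rose by 0.25 ± 0.0465 with insulin (adjusted p = 0.000247). This call was lost without control vehicle 1 or 2 or control insulin 1 or 2 (adjusted p = 0.00327 to 0.00484). In H1047R cells the change was 0.17 ± 0.0455 (adjusted p = 0.00303), which did not pass but did so with DESeq2 (0.000926), with library totals alone (0.000461) and with no filter on low counts (0.000355). The insulin effects of the cells differed by -0.09 ± 0.0650 (adjusted p = 0.415, 95% interval -0.24 to 0.06). Part of FOXO3 is nearly identical to FOXO3B on chromosome 17, which was at 9.92 ± 0.627, 8.73 ± 0.750, 8.28 ± 0.329 and 7.70 ± 0.339 CPM in H1047R insulin, H1047R vehicle, control insulin and control vehicle (SD, n = 3 each), so the split of reads between them is uncertain.

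FOXO1 (ENSG00000150907, chromosome 13, 40555667 to 40666641, minus strand), the insulin-controlled factor of liver and of decidualizing endometrial stroma, was scarce. It was at 3.53, 3.14 and 3.79 CPM in H1047R insulin, 3.03, 3.15 and 2.98 CPM in H1047R vehicle, 3.45, 3.20 and 3.26 CPM in control insulin, and 3.69, 3.46 and 3.55 CPM in control vehicle, from 72 to 146 counts per library. Insulin changed it by 0.19 ± 0.134 in H1047R cells (adjusted p = 0.311, 95% interval -0.12 to 0.50) and by -0.11 ± 0.136 in control cells (0.772, -0.42 to 0.20), and neither passed. H1047R vehicle lay below control vehicle without overlap, at -0.22 ± 0.141 on the log2 scale (adjusted p = 0.573), a gap in library values that 14.4% of all genes showed in that contrast. An unnamed gene overlaps FOXO1 on its own strand, so reads in any shared part are uncertain.

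Per kilobase of exon, which allows levels of different genes to be set side by side, FOXO3 was at 11.5 ± 0.412, 10.2 ± 0.186, 10.9 ± 0.430 and 9.14 ± 0.400 CPM per kb in H1047R insulin, H1047R vehicle, control insulin and control vehicle. FOXO4 was at 5.76 ± 0.135, 9.09 ± 0.323, 8.04 ± 0.336 and 9.81 ± 0.241 CPM per kb in the same order, and FOXO1 at or below 0.599 (SD, n = 3 each). The ratio of FOXO3 to FOXO4 was 2.0 ± 0.0861 in H1047R insulin, 1.13 ± 0.0313 in H1047R vehicle, 1.36 ± 0.0890 in control insulin and 0.932 ± 0.0311 in control vehicle. No groups overlapped in this ratio, and control vehicle was the only group with more FOXO4 than FOXO3 per kb. The lengths used, 7670 bases for FOXO3 and 3790 for FOXO4, cover all annotated exons rather than the transcripts expressed. Which factor was higher depends on these lengths, as do the sum and the shares below, while the order of the groups in the ratio does not. The uncertain split of reads with FOXO3B bears on FOXO3 here as well. The sum of the 3 factors moved less, at 17.8 ± 0.487 CPM per kb in H1047R insulin against 19.8 ± 0.464 in H1047R vehicle, and 19.5 ± 0.490 in control insulin against 19.5 ± 0.575 in control vehicle. FOXO4 made up 32.3 ± 0.962% of that sum in H1047R insulin, 45.8 ± 0.671% in H1047R vehicle, 41.3 ± 1.55% in control insulin and 50.2 ± 0.806% in control vehicle. FOXO6, the fourth mammalian FOXO gene, had at most 5 counts in a library.

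**Figure D2:**
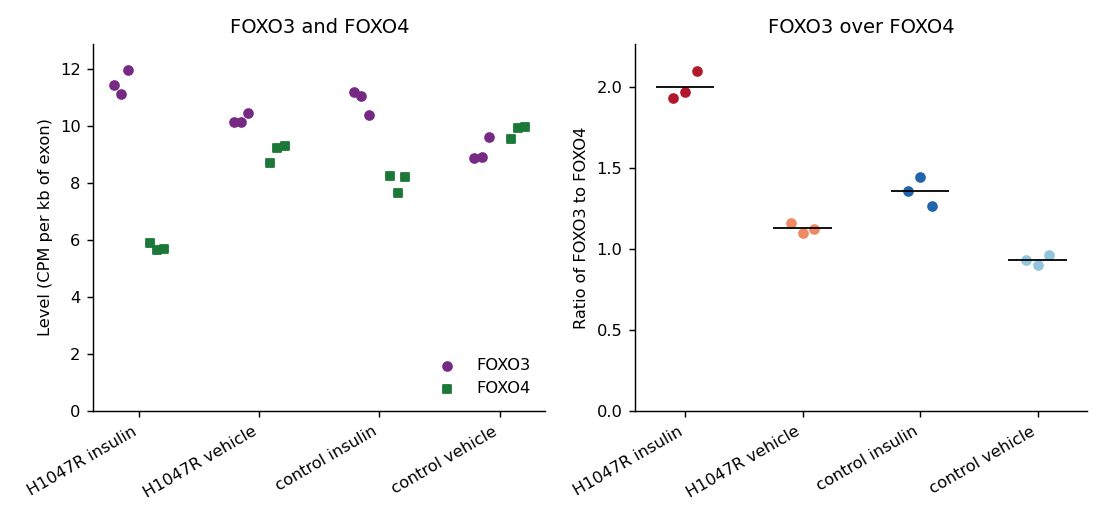
Left, FOXO3 (circles) and FOXO4 (squares) in CPM per kb of exon in each of the 12 libraries; right, the ratio of FOXO3 to FOXO4 in each library with the mean of each group of 3 (line), both axes from 0. The ratio is 1.93 to 2.10 in H1047R insulin and 0.901 to 0.963 in control vehicle.

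Among the targets, YPEL3 (ENSG00000090238, chromosome 16, 30092314 to 30096915, minus strand), a small growth-suppressing protein linked to senescence, changed most among the genes with more than a few counts. It was at 11.7, 11.6 and 11.2 CPM in H1047R insulin, 21.5, 23.8 and 24.8 CPM in H1047R vehicle, 17.1, 18.4 and 19.3 CPM in control insulin, and 24.9, 26.6 and 27.5 CPM in control vehicle. The order of the groups was that of FOXO4, again with no overlap between neighbours. Insulin lowered YPEL3 2.04-fold in H1047R cells (log2 fold change -1.03 ± 0.0712, adjusted p = 3.43e-15) and 1.44-fold in control cells (-0.52 ± 0.0681, adjusted p = 5.92e-07). In insulin it was 1.59-fold lower in H1047R cells than in control cells (-0.67 ± 0.0724, adjusted p = 4.01e-10), and in vehicle the difference of -0.17 ± 0.0670 did not pass (0.266). The insulin effects of the cells differed by -0.50 ± 0.0987 (adjusted p = 0.000150), a call lost without control insulin 3 (0.00103). The opposite strand holds the noncoding YPEL3-DT, which the counting by strand keeps apart.

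CCNG2 (ENSG00000138764, chromosome 4, 77157207 to 77433388, plus strand), which encodes cyclin G2, an unconventional cyclin that holds cells out of cycle, moved the same way by less. It was at 89.2, 98.8 and 99.99 CPM in H1047R insulin, 113, 117 and 119 CPM in H1047R vehicle, 111, 111 and 115 CPM in control insulin, and 128, 131 and 124 CPM in control vehicle. H1047R insulin lay below and control vehicle above all others, while H1047R vehicle and control insulin overlapped. CCNG2 fell by 0.28 ± 0.0444 on the log2 scale with insulin in H1047R cells (adjusted p = 2.34e-06). In control cells the change of -0.18 ± 0.0443 did not pass (adjusted p = 0.00731), and the insulin effects were not shown to differ (-0.10 ± 0.0627, adjusted p = 0.327). In insulin, CCNG2 was 0.23 ± 0.0442 lower in H1047R cells on the log2 scale (adjusted p = 5.00e-05), and this call was lost without H1047R insulin 1 (0.00263).

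CITED2 (ENSG00000164442, chromosome 6, 139371807 to 139374648, minus strand), which competes with hypoxia-inducible factors for the coactivators CBP and p300, was higher in H1047R insulin than in any other group. It was at 96.0, 95.5 and 99.1 CPM in H1047R insulin, 71.6, 71.7 and 74.6 CPM in H1047R vehicle, 62.9, 62.3 and 63.8 CPM in control insulin, and 73.2, 71.6 and 73.8 CPM in control vehicle. H1047R insulin stood above and control insulin below all others, and the vehicle groups overlapped. With insulin CITED2 rose by 0.42 ± 0.0427 in H1047R cells (adjusted p = 1.55e-10). In control cells the change was -0.21 ± 0.0443 (adjusted p = 0.00157). That change did not pass with edgeR but did with DESeq2 (8.04e-05), after requiring 1 CPM in 3 libraries (0.000810) and without H1047R vehicle 1 (0.000440). The insulin effects differed by 0.63 ± 0.0615 (adjusted p = 1.82e-10). In insulin CITED2 was 1.54-fold higher in H1047R cells (0.62 ± 0.0428, adjusted p = 1.76e-15), and in vehicle the cells differed by -0.0047 ± 0.0442 (0.993, 95% interval -0.11 to 0.10).

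BCL6 (ENSG00000113916, chromosome 3, 187721377 to 187745725, minus strand), a transcriptional repressor known from germinal centre B cells and raised in the endometrium in endometriosis, was at 23.2, 21.8 and 21.9 CPM in H1047R insulin, 19.6, 21.2 and 22.7 CPM in H1047R vehicle, 16.3, 16.4 and 14.9 CPM in control insulin, and 17.8, 19.7 and 19.1 CPM in control vehicle. The H1047R groups overlapped each other and H1047R insulin lay above all control libraries. In insulin BCL6 was 1.40-fold higher in H1047R cells (log2 0.49 ± 0.0680, adjusted p = 1.32e-07). Insulin changed it by 0.07 ± 0.0665 in H1047R cells (adjusted p = 0.450) and by -0.25 ± 0.0718 in control cells (0.0293), where control insulin lay below control vehicle without overlap. Neither passed, nor did the difference of 0.32 ± 0.0979 between them (0.0134). Unnamed genes overlap BCL6 on its own strand, so reads in the shared part are uncertain.

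**Figure D3:**
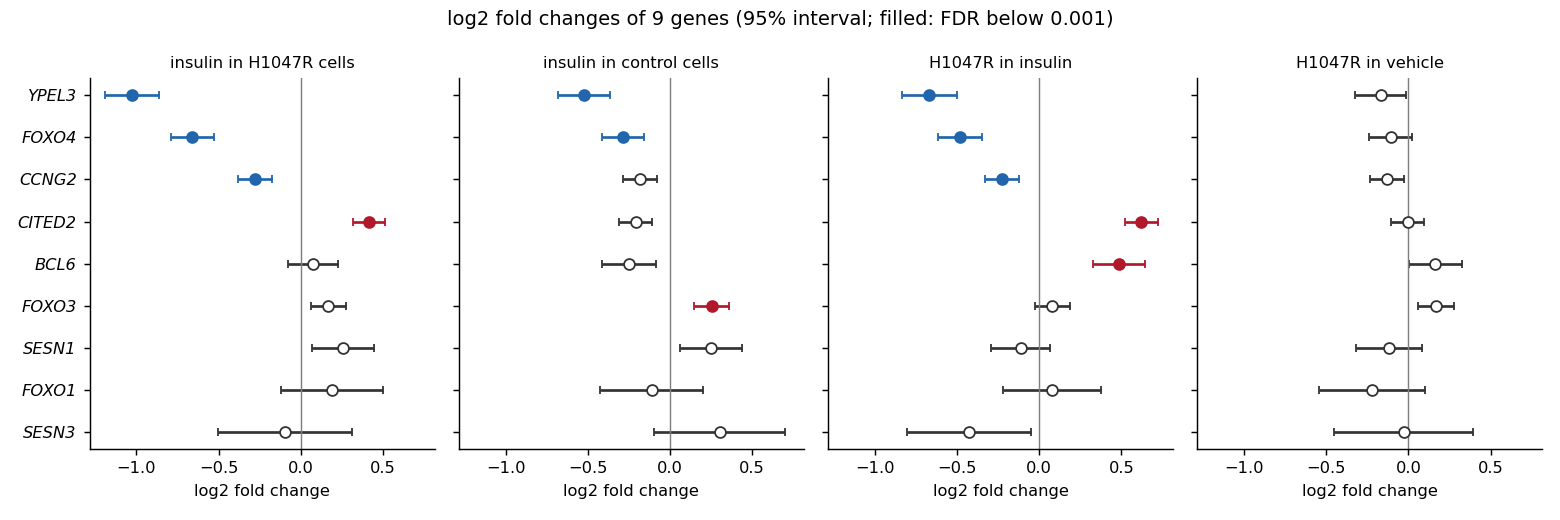
log2 fold changes of 9 genes (PDK4 is left out for its low counts) in insulin over vehicle in H1047R and in control cells, and in H1047R over control cells in insulin and in vehicle, with 95% intervals (horizontal bars) and filled points where the FDR was under 0.001. YPEL3 is at -1.03, -0.52, -0.67 and -0.17 in the 4 panels, and CITED2 at 0.42, -0.21, 0.62 and -0.0047.

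SESN1 and SESN3, sestrins that restrain mTORC1 under stress, did not pass in any contrast. SESN1 was at 15.2, 13.9 and 16.1 CPM in H1047R insulin, 14.0, 12.8 and 11.1 CPM in H1047R vehicle, 15.4, 17.5 and 16.0 CPM in control insulin, and 14.3, 13.8 and 12.9 CPM in control vehicle. Its insulin changes were 0.26 ± 0.0822 in H1047R cells (adjusted p = 0.0127), where the libraries overlapped, and 0.25 ± 0.0824 in control cells (0.0696), where they did not. These changes differed by 0.0059 ± 0.116 (adjusted p = 0.985, 95% interval -0.26 to 0.27). Without H1047R vehicle 1, the change in H1047R cells was 0.36 and passed (0.000638). SESN3 was near the low end, at 1.73, 1.93 and 2.44 CPM in H1047R insulin, 2.19, 1.87 and 2.53 CPM in H1047R vehicle, 3.05, 2.75 and 2.46 CPM in control insulin, and 2.51, 1.89 and 2.33 CPM in control vehicle. All of its insulin and vehicle groups overlapped. The difference nearest to a call was H1047R against control cells in insulin, -0.43 ± 0.164 (adjusted p = 0.0364), where the libraries did not overlap.

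PDK4, the pyruvate dehydrogenase kinase that spares glucose in fasting muscle and liver, was hardly transcribed. Its counts were 3, 1 and 2 in H1047R insulin, 2, 2 and 3 in H1047R vehicle, 0, 5 and 1 in control insulin, and 2, 6 and 8 in control vehicle, that is, at most 0.373 CPM. A change was not detectable at this depth. The libraries of the compared groups did not overlap for 5 of the 10 genes with insulin in H1047R cells, 2 higher and 3 lower, against 44.8% of all genes (22.7% and 22.2%). In control cells they did not overlap for 8 of the 10, 2 higher and 6 lower, against 20.3% of all genes (10.3% and 9.92%). Between the cells in insulin this held for 6 of the 10, 2 higher and 4 lower, against 48.5% (23.3% and 25.2%), and in vehicle for 5 of the 10, 1 higher and 4 lower, against 14.4% (7.55% and 6.84%). The 8 in control cells were FOXO3 and SESN1, higher with insulin, and FOXO1, FOXO4, YPEL3, CCNG2, BCL6 and CITED2, lower with insulin.

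Relatives of these genes were then compared. In H1047R cells insulin changed 6 of 12 relatives tested, 2 higher and 4 lower, and in control cells 1 of 12, higher, against 19.6% and 1.63% of all genes. YPEL1, a nuclear paralog of YPEL3, was at 6.13, 6.61 and 7.48 CPM in H1047R insulin against 15.2, 19.2 and 19.5 CPM in H1047R vehicle (log2 fold change -1.42 ± 0.0925, adjusted p = 5.26e-16). It was at 14.4, 15.7 and 16.1 CPM in control insulin against 18.1, 18.3 and 20.96 CPM in control vehicle, where the change did not pass, and the insulin effects differed by -1.11 ± 0.126 (adjusted p = 5.24e-09). YPEL2 fell as well in H1047R cells (-0.48 ± 0.0913), a call lost without H1047R vehicle 2 (adjusted p = 0.00180), so 3 of the 5 YPEL genes fell there. CCNG1, the p53-induced relative of CCNG2, fell by 0.25 ± 0.0471 in H1047R cells, a call lost without H1047R insulin 1 (0.00144).

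SESN2, the sestrin induced by ATF4, rose 2.08-fold in H1047R cells and was at 7.76, 7.78 and 8.59 CPM in H1047R insulin against 3.70, 3.85 and 4.00 CPM in H1047R vehicle (1.06 ± 0.108, adjusted p = 1.34e-10). Of the 3 sestrin genes it was the one that passed, and its insulin effect differed between the cells by 0.80 ± 0.166 (0.000312). That call was lost without control vehicle 2 or 3, control insulin 1, H1047R vehicle 2 or H1047R insulin 1 (0.00104 to 0.00183). Among the kinases of pyruvate dehydrogenase, PDK2 fell by 0.47 ± 0.0511 in H1047R cells. PDK1, a hypoxia target, rose in both, by 0.21 ± 0.0474 in H1047R cells and by 0.28 ± 0.0482 in control cells. The PDK1 call was lost in H1047R cells without H1047R vehicle 2 or 3 or any of the H1047R insulin libraries (adjusted p = 0.00132 to 0.00475) and in control cells without control vehicle 3 or control insulin 2 (0.00179 and 0.00193).

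**Figure D4:**
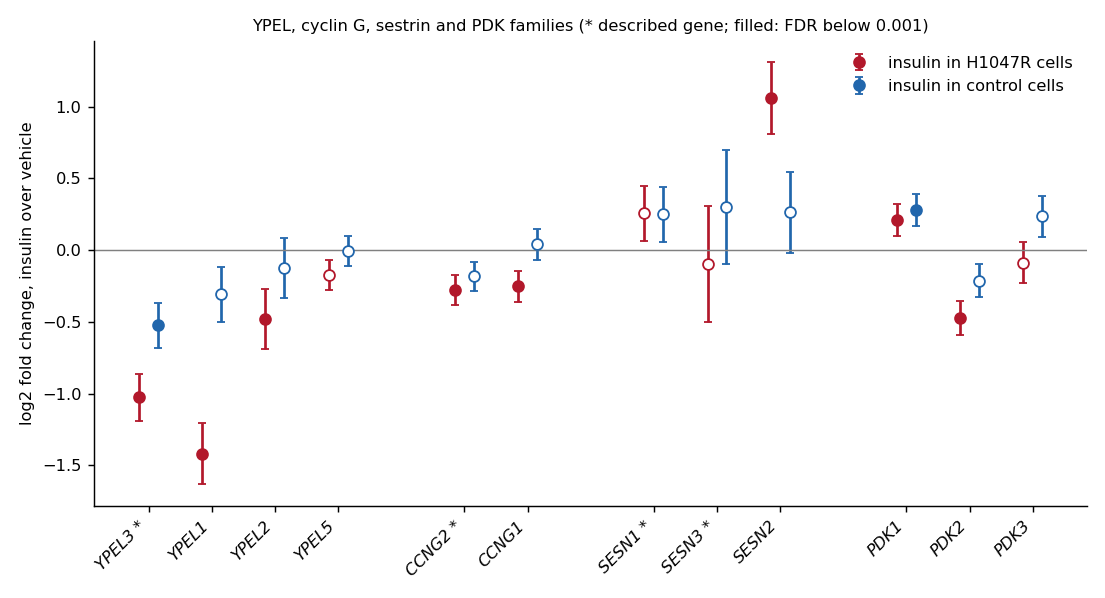
log2 fold change of insulin over vehicle in H1047R cells (left point of each pair) and in control cells (right point) for the YPEL, cyclin G, sestrin and PDK genes averaging at least 1 CPM, with 95% intervals (bars) and filled points where the FDR was under 0.001. YPEL3 and YPEL1 are lowest in H1047R cells, at -1.03 and -1.42, and SESN2 is highest, at 1.06.

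Other genes that FOXO factors are known to activate were taken from a list of 40, of which 39 were matched and 35 tested. In H1047R cells, insulin raised 10 and lowered 11 of the 35, against 19.6% of all genes called, with a median log2 fold change of 0.05 against -0.00060. In control cells it raised 2 and lowered 4, against 1.63% of all genes called, with a median of -0.12 against 0.0037, and 23 of the 35 were below 0. In insulin, 11 were higher and 8 lower in H1047R than in control cells, against 23.5% of all genes. In vehicle 0 of the 35 were called with edgeR or DESeq2, and 9 had an unadjusted p under 0.05, against 11.9% of all genes.

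Among the genes that fell, the receptor of insulin-like growth factor 1, IGF1R, did so by 0.48 ± 0.0452 in control cells and INSR, the insulin receptor, by 0.34 ± 0.0609. In H1047R cells IGF1R fell by 0.52 ± 0.0449 and INSR by 0.58 ± 0.0607. The INSR call in control cells was lost without control vehicle 1 or 3 or control insulin 2 (adjusted p = 0.00153 to 0.00716). IRS2 fell by 0.50 ± 0.0769 in control cells and was at -0.08 ± 0.0724 in H1047R cells, where it did not pass. ERBB3, a receptor of the EGF receptor family, fell by 0.96 ± 0.0671 in H1047R cells. SELENOP, the plasma carrier of selenium, fell by 2.01 ± 0.274 there but had at most 74 counts in a library, and its call was lost with unstranded counts (adjusted p = 0.0626).

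Of the 10 that rose in H1047R cells, GADD45A, a DNA damage and stress gene, changed most. It was at 66.8, 67.1 and 68.5 CPM in H1047R insulin against 21.6, 22.4 and 27.7 CPM in H1047R vehicle (1.5 ± 0.0628, adjusted p = 7.18e-22), and at 19.7, 21.1 and 22.5 CPM in control insulin against 21.1, 21.6 and 22 CPM in control vehicle. TNFSF10, the death ligand TRAIL, rose by 0.89 ± 0.0929, the glucose-responsive TXNIP by 0.75 ± 0.0586, the antiproliferative BTG1 by 0.66 ± 0.0583 and DEPP1 by 0.64 ± 0.0899. The mitophagy gene BNIP3 rose by 0.80 ± 0.0546 in H1047R cells and by 0.40 ± 0.0553 in control cells, and CDKN1A, which encodes the CDK inhibitor p21, rose by 0.41 ± 0.0446 in H1047R cells and by 0.40 ± 0.0450 in control cells. KLF6 rose by 0.25 ± 0.0420 in H1047R cells and fell by 0.31 ± 0.0434 in control cells.

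**Figure D5:**
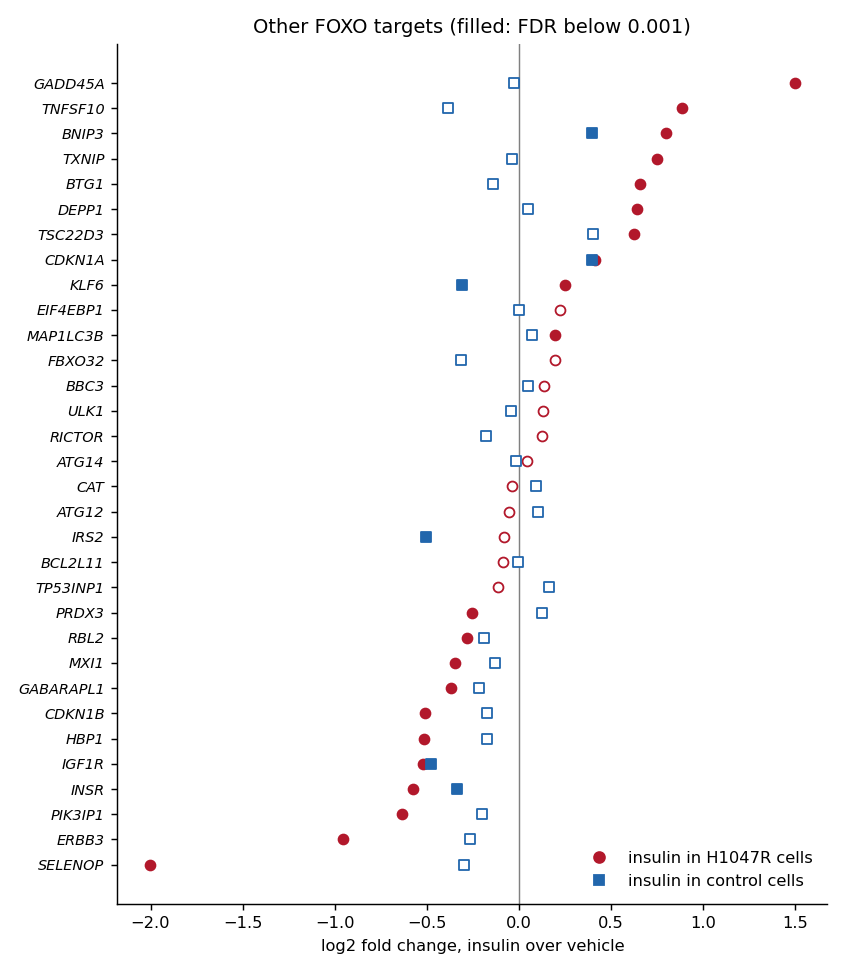
log2 fold change of insulin over vehicle for 32 further FOXO targets averaging at least 1 CPM, in H1047R cells (circles) and control cells (squares), filled where the FDR was under 0.001. GADD45A is highest in H1047R cells, at 1.5, and SELENOP lowest, at -2.01.

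Of 27 regulators of FOXO proteins, insulin changed 5 in H1047R cells, 4 higher and 1 lower, and 4 in control cells, 3 higher and 1 lower. Of all genes, 19.6% and 1.63% were called in these contrasts, so that the share of regulators in H1047R cells was near that of all genes. SGK1, a kinase related to AKT that phosphorylates FOXO proteins, rose by 0.45 ± 0.0429 in H1047R cells and fell by 0.31 ± 0.0446 in control cells, and the effects differed by 0.76 ± 0.0618 (adjusted p = 1.30e-12). SKP2, a ubiquitin ligase subunit that targets FOXO1, fell by 0.43 ± 0.0469 in H1047R cells. MDM2, the p53 ubiquitin ligase that also acts on FOXO proteins, rose by 0.61 ± 0.0502 in H1047R cells and by 0.26 ± 0.0510 in control cells. The control call of MDM2 was lost without any control library but control insulin 3 and after requiring 1 CPM in 3 libraries (adjusted p = 0.00153 to 0.0162). The 14-3-3 genes YWHAG and YWHAZ rose in control cells, by 0.22 ± 0.0352 and 0.20 ± 0.0339, calls lost without control vehicle 2 (0.00114) and without control insulin 2 (0.00154). In H1047R cells the 14-3-3 gene YWHAQ rose by 0.16 ± 0.0356. That call was lost without H1047R vehicle 2 or H1047R insulin 2 or 3 (0.00122 to 0.0106). PHLPP2 rose there by 0.22 ± 0.0519. Its call was lost without control vehicle 2, control insulin 2, H1047R vehicle 2 or 3 or any H1047R insulin library (0.00103 to 0.0139). In insulin, 4 of the 27 were higher and 4 lower in H1047R than in control cells, against 23.5% of all genes. In vehicle, 0 of the 27 regulators and 0 of the 12 relatives were called with edgeR or DESeq2, with 3 and 1 at an unadjusted p under 0.05.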

How the data were processed

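Sequencing libraries came from 3 independent experiments per condition, each with 500 ng of total RNA and a stranded mRNA kit. Reads were trimmed (cutadapt, Trim Galore) and aligned to hg38 (STAR) by the authors, who deposited raw gene counts, without normalization, for pairs placed at 1 site. Versions of these tools were not found in the sources used here, and the only annotation release that the methods name is a mouse one, so the human release is unknown.

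Reverse-strand counts (93.5 to 93.7% of stranded counts) were used. Unmapped, multiply placed, unassigned and ambiguous reads (3.12 to 4.09%, 8.48 to 15.4%, 3.91 to 4.55% and 3.31 to 3.61%) were left out. Genes averaging at least 1 count were tested with edgeR 4.0.16 (quasi-likelihood, TMM, R 4.3.3) in 1 fit of all 12 libraries with 8 residual degrees of freedom, with Benjamini-Hochberg FDR under 0.001 over all genes. The study used DESeq2 at that threshold, and DESeq2 1.42.0 was an alternative here. All adjusted p-values are edgeR's unless DESeq2 is named, fold changes are ± SE, and 95% intervals use the residual degrees of freedom. The fit was run on simulated counts with the same spread for every gene. That setting is simpler than the real data, so it checked the code and not the error rates here. No replicates agreed within counting noise (chi-square per degree of freedom 2.70 to 5.90).

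Gene coordinates and exon lengths came from GENCODE v44, and promoters from RefSeq, with 10 of 10 genes matched and the longer window read from hg38 and chosen after the shorter held no match. The 10 genes, and the lists of other targets, regulators, relatives and markers, were chosen with earlier results of these data known. Named from a list were up to 8 called genes per contrast averaging at least 1 CPM with the largest changes. Further values of a named gene in the other contrast fall outside this rule. So do the values of CDKN1B, HBP1, GABARAPL1, FOXO3B, FOXO6, EPCAM, CDH1 and CD3E. Alternatives were other scalings, filters, thresholds, strands, a replicate block and each library left out.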

Additional observations from a re-analysis of the deposited data

Results flagged for a closer look

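The insulin effect differed between H1047R and control cells, as tested by the interaction of insulin and plasmid in edgeR at an FDR under 0.001, for 3 of the 10 genes. The differences, insulin effect in H1047R cells minus that in control cells on the log2 scale, were -0.37 for FOXO4, -0.50 for YPEL3 and 0.63 for CITED2. CITED2 was the one of them whose insulin effects had opposite signs, and its effect in control cells did not pass the test. The call of the FOXO4 difference was lost under 10 of 20 alternatives (adjusted p up to 0.00204). That of YPEL3 was lost under 1 of 20, without control insulin 3 (0.00103).

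Of 35 other FOXO targets tested, 7 had a more positive and 5 a more negative insulin effect in H1047R cells. Of all genes, 9.07% were called in this contrast (4.58% and 4.49%). The 8 with the largest differences among those averaging at least 1 CPM are named here. The difference was 1.53 for GADD45A, 1.27 for TNFSF10, 0.80 for BTG1, 0.79 for TXNIP, 0.59 for DEPP1 and 0.56 for KLF6. It was -1.71 for SELENOP and -0.69 for ERBB3. Among 27 regulators of FOXO proteins, 3 were more positive and 1 more negative. The difference was 0.76 for SGK1, 0.36 for INPP4B, a lipid phosphatase that opposes PI3K, 0.36 for MDM2 and -0.45 for SKP2. Among 12 relatives tested it was -1.11 for YPEL1, 0.80 for SESN2 and -0.29 for CCNG1. Several of these calls were lost when 1 library was left out: those of INPP4B and CCNG1 without any of 9 libraries (adjusted p = 0.00130 to 0.00249 and 0.00106 to 0.00686), DEPP1 without any of 8 (0.00172 to 0.00607), SELENOP and SESN2 without any of 4 and 5, and MDM2 without control vehicle 3, control insulin 3, H1047R vehicle 2 or H1047R insulin 3 (0.00123 to 0.00166). The CCNG1 call was also lost with DESeq2 (0.00115), with its size factors (0.00121), with library totals alone (0.00199) and after requiring 1 CPM in 3 libraries (0.00218), that of DEPP1 with this last filter (0.00161) and that of SELENOP with unstranded counts (0.311). KLF6 and SGK1 passed the test in both kinds of cells with opposite signs. H1047R insulin had the highest PIK3CA level of all groups, so that the plasmid and its level cannot be told apart in any of these differences.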

How the results depend on the processing

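Every call of FOXO4, YPEL3, CCNG2 and CITED2 with insulin in H1047R cells, and of YPEL3, FOXO4, CITED2 and BCL6 between the cells in insulin, held under all 21 alternatives. The number of the 10 genes called with insulin in control cells was 6 at an FDR under 0.05 and 1 to 4 with each library left out in turn. That number was 4 to 5 for insulin in H1047R cells, 4 to 5 between the cells in insulin, 0 in vehicle and 1 to 3 for the difference of the insulin effects, where it was 1 without control insulin 3. Reversed signs were met only in changes that did not pass. With 1 library left out, CITED2 between the cells in vehicle was -0.0238 to 0.0043 (0.0041 with library totals alone), SESN1 in the difference of the insulin effects -0.0789 to 0.12 (-0.0061 with unstranded counts), SESN3 -0.26 to 0.0178 with insulin in H1047R cells and -0.15 to 0.0773 between the cells in vehicle, and PDK4 -0.86 to 1.42 between the cells in insulin. Over all genes, the calls in vehicle numbered 36, against 152 with no filter, 6 with a filter of 1 CPM in 3 libraries, 22 with DESeq2, 276 at an FDR under 0.05 and 14 to 100 without 1 library. With insulin in control cells they numbered 372, against 1207 at an FDR under 0.05 and 233 without control insulin 2. At an FDR under 0.05 they were 7811 with insulin in H1047R cells, 8774 between the cells in insulin and 4848 for the difference of the insulin effects. Replicate numbers were given in the order of the samples, and under this numbering no pairing was seen (18 pairs, correlations -0.058 to 0.087). Pairing by experiment under another numbering was not tested. With a block for these numbers, 4, 3, 5, 0 and 3 of the 10 genes were called with insulin in H1047R cells, with insulin in control cells, between the cells in insulin, in vehicle and for the difference of the insulin effects, as without it. PDK4, SESN3 and FOXO1 are limited by depth, with at most 8, 94 and 146 counts in a library.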
